A study of Mus musculus with 12 samples.

Results

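The p53 family and its MDM regulators are 5 mouse genes: Trp53, Trp63 and Trp73, which encode the transcription factors p53, p63 and p73, and Mdm2 and Mdm4, which encode the regulators that hold p53 in check. They were taken by symbol from a table of 55487 genes, each symbol matched 1 Ensembl identifier, and all 5 were among the 22384 genes that passed the filter on low values (3 or more libraries with 10 or more normalized counts). RNA was sequenced from male germ cells called gonocytes, the germ cells of the fetal and newborn testis before spermatogonia form, isolated from Mvh-Venus transgenic mice, which carry a fluorescent reporter of germ cells. The 12 libraries fall into 4 stages of 3: E13.5 and E16.5 (days of embryonic development), P0 (the day of birth) and P3 (postnatal day 3). Titles and source names call all samples WT, whereas the genotype tag reads Morc1 (+/-) at E13.5 and P0 and Morc1 (-/-) at E16.5 and P3. Grouping here follows stage alone, and in comparisons that cross the tag, stage and genotype cannot be told apart if the tag is right. The pairs P0 and E13.5, and P3 and E16.5, each share a tag. In order of age, mean Morc1 normalized counts were 1697 ± 115, 31378 ± 2641, 7496 ± 214 and 10881 ± 276 (SD, n = 3 per stage), so the stages tagged (-/-) were not the low ones.

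p53 is a transcription factor that responds to DNA damage and other stress by switching on genes for cell cycle arrest, DNA repair and apoptosis. MDM2 is a ubiquitin ligase that binds p53 and marks it for destruction, and Mdm2 is itself a p53 target, which closes a negative feedback loop. MDM4 is a relative of MDM2 that binds p53 and blocks its ability to activate genes. p63 is known for the development of stratified epithelia and for quality control of oocytes, and p73 for multiciliated cells, the nervous system and fertility. Both genes have 2 sets of start sites, which give full-length (TA) and N-terminally shortened (ΔN) proteins. Transcript levels, not proteins, were measured, and a count per gene does not separate these forms.

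The regions just before the starts of 3 members are shown because Trp53 and Mdm2 had the widest and the narrowest range of stage means among the members and because Trp73 has 2 annotated starts. Each runs 5′ to 3′ on the strand of the gene, from 250 bases before the start site to 30 bases after it, in RefSeq on GRCm38.p6. The RefSeq table matched 4 of the 5 members. Capitals mark matches to 5 motifs searched on both strands: the GC box (GGGCGG), the CCAAT box (CCAAT), the E-box (CACGTG), an E2F motif (TTTNNCGC) and the p53 half-site, which is 10 letters long.
Trp53, chr11:69580109-69580388, + strand: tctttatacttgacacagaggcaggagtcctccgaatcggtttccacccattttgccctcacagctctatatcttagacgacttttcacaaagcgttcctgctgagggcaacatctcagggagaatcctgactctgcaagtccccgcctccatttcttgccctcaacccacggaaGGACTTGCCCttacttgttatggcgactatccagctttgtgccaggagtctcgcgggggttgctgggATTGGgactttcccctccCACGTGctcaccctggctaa
Mdm2, chr10:117710729-117711008, - strand: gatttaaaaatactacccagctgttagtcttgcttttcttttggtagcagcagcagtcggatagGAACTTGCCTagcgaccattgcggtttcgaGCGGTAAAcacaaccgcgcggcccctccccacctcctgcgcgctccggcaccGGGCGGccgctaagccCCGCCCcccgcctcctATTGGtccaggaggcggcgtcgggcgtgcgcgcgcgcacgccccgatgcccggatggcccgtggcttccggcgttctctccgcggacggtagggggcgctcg
Trp73, outer start, chr4:154139846-154140125, - strand: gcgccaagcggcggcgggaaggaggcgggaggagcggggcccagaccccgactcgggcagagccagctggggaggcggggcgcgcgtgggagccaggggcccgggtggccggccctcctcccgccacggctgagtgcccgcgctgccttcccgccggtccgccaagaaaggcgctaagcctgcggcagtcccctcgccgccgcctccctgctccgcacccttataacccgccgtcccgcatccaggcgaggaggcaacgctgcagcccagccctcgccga
Trp73, inner start, chr4:154097144-154097423, - strand: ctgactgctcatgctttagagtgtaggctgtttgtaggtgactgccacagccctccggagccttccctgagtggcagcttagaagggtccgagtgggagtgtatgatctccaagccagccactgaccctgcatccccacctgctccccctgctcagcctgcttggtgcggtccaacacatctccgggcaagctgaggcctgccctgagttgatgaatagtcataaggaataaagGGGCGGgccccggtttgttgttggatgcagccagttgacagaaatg
The Trp53 window held 1 p53 half-site, 1 CCAAT box on the opposite strand and 1 E-box. The Mdm2 window held 1 p53 half-site, 2 GC boxes, 1 CCAAT box and 1 E2F motif. Of these, the CCAAT box, the E2F motif and 1 GC box lay on the opposite strand. The outer Trp73 window and both Mdm4 windows held none of the motifs, and the inner Trp73 window held 1 GC box. Of 32851 windows of this length in the table, 7.84% held a p53 half-site, 34.7% a GC box, 36.1% a CCAAT box, 6.79% an E-box and 4.84% the E2F motif. The marked letters describe the sequence and are not measured binding sites. GC content was 53.6% in the Trp53 window, 66.4% in the Mdm2 window, 76.8% in the outer and 57.1% in the inner Trp73 window.

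Values are deposited normalized counts, that is, reads divided by a size factor of the library. Libraries are named by the number 1, 3 or 4 in their column heads, each mean is over 3 libraries and each ± is an SD unless called a standard error (SE). Recovered reads assigned to genes numbered 40946616 to 51533747 per library. The size factors were 1.84 to 2.07 at P0 and 0.919 to 1.263 at the other stages, so differences that involve P0 depend most on scaling. No label says whether the libraries of a stage came from separate animals, so p-values measure only the spread between these samples. Germ cell markers were abundant in sum: the summed normalized count of 9 such genes, among them Ddx4 and Dazl, ranged from 157065 to 168345 at P0 and from 262413 to 307393 over the other stages. Single markers could be low. Nanos2 and Nanos3 had means of 655.2 and 2079 at E13.5 but 10.2 and 34.0 at P0. Dnd1 went from a mean of 69582 at E16.5 to 3892 at P0. Markers of somatic cells were present too. The summed count of 8 Sertoli cell markers was, in order of age, 3829 to 5242, 12470 to 19041, 21503 to 42178 and 8681 to 11444. Most of this sum was Clu and Inha, with Clu means of 2723, 11041, 16528 and 4487. From E13.5 to E16.5 the mean of Wt1 fell from 85.7 to 48.5 and that of Amh went from 110.7 to 120.2, while the other means rose. The 5 mast cell markers were at 0 in all E13.5 libraries and summed to 1128 to 2472 at P0. The part of such cells in the results below was not tested except where a value is given, and in bulk RNA fewer cells of a type and less RNA per cell cannot be told apart.

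Trp53 (ENSMUSG00000059552, chromosome 11, 69580359 to 69591873 on the + strand of GRCm38 in GENCODE M21) was the member that fell furthest. In libraries 1, 3 and 4 of E13.5 it had 16812, 17111 and 18394 normalized counts, and in those of E16.5 only 951.4, 1179 and 1085. The P0 libraries had 1158, 1031 and 901.1, and the P3 libraries 4160, 3955 and 4058. E13.5 stood far above all other libraries, E16.5 and P0 overlapped, and P3 lay between. The stage means in order of age were 17439 ± 840, 1072 ± 114, 1030 ± 128 and 4058 ± 103. From E13.5 to E16.5 Trp53 fell 16.3-fold, with log2 fold change -4.03 (SE 0.0940; limma adjusted p 2.10e-15). It did not pass the test between E16.5 and P0, with log2 fold change -0.06 (SE 0.0940, limma adjusted p 0.606). Direction and call depended on scaling here: the value was 0.15 with TMM factors (limma adjusted p 0.142) and 0.60 with equal library totals, which passed (limma adjusted p 2.06e-05). It rose 3.94-fold from P0 to P3, a log2 fold change of 1.98 (limma adjusted p 9.15e-12), and at P3 was still 4.30-fold below E13.5 (log2 fold change -2.103, limma adjusted p 5.40e-12). Within 1 genotype tag, the log2 fold change was -4.09 at P0 against E13.5 (limma adjusted p 9.39e-16) and 1.92 at P3 against E16.5 (limma adjusted p 1.96e-11). In size, the range of its stage means on the log2 scale, 4.09, exceeded that of 78.7% of the genes tested, whose median range was 2.30. Of the 50-base words of its transcripts 3.95% also occur in transcripts of other genes, mostly the pseudogene Trp53-ps, which had 15.8 to 134.6 normalized counts.

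Trp63 (ENSMUSG00000022510, chromosome 16, 25683763 to 25892102, + strand) moved the opposite way. In libraries 1, 3 and 4 the normalized counts were 87.6, 74.0 and 74.7 (E13.5), 881.7, 623.9 and 653.0 (E16.5), 822.9, 666.8 and 734.1 (P0) and 58.1, 85.4 and 101.2 (P3). Every library of E16.5 and P0 lay above every library of E13.5 and P3, and within each of those 2 sets the stages overlapped. Trp63 rose 9.14-fold from E13.5 to E16.5, from 78.8 ± 7.68 to 719.5 ± 141, with log2 fold change 3.16 (SE 0.196, limma adjusted p 1.81e-10). Between E16.5 and P0, where the mean was 741.3 ± 78.3, the log2 fold change was 0.05 (SE 0.196, limma adjusted p 0.825), whereas equal library totals gave a rise of 0.72 that passed (limma adjusted p 0.00396). From P0 to P3 it fell 9.08-fold to 81.6 ± 21.8, a log2 fold change of -3.20 (limma adjusted p 2.25e-10). P3 and E13.5 differed by 0.02 on the log2 scale (SE 0.196, limma adjusted p 0.951). The E13.5 and P3 values rest on 60 to 100 reads per library and those of E16.5 and P0 on 671 to 1576. No 50-base word of its transcripts occurs in transcripts of other genes.

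Trp73 (ENSMUSG00000029026, chromosome 4, 154056253 to 154140208, - strand) was the least abundant member. In libraries 1, 3 and 4 the normalized counts were 53.8, 51.1 and 42.1 (E13.5), 169.9, 132.0 and 117.9 (E16.5), 179.1, 204.9 and 184.9 (P0) and 36.8, 45.2 and 57.7 (P3). The E16.5 and P0 libraries were again all above those of E13.5 and P3. Trp73 rose 2.86-fold to E16.5, from 49.0 ± 6.17 to 139.9 ± 26.9, with log2 fold change 1.49 (SE 0.233, limma adjusted p 1.82e-05). At P0 the mean was 189.6 ± 13.52 and did not overlap E16.5, but the log2 fold change of 0.45 (SE 0.233) did not pass the test (limma adjusted p 0.105). This call depended on scaling: with TMM factors the log2 fold change was 0.66 (limma adjusted p 0.0206), and equal library totals gave 1.11 (limma adjusted p 0.000464). From P0 to P3 Trp73 fell 4.07-fold to 46.6 ± 10.5, a log2 fold change of -2.02 (limma adjusted p 6.22e-07). P3 and E13.5 overlapped, with log2 fold change -0.09 (SE 0.233, limma adjusted p 0.754). Its antisense neighbour Trp73os shares 5.06% of its exon bases and held at most 2.37 normalized counts. Of the 50-base words of Trp73 transcripts, 4.12% also occur in Trp73os and none in other genes. Strand use and the handling of reads that overlap both genes are not stated. The low Trp73os count therefore cannot show whether Trp73 reads were lost there.

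Mdm2 (ENSMUSG00000020184, chromosome 10, 117688875 to 117710758, - strand) varied little. In libraries 1, 3 and 4 the normalized counts were 15163, 13841 and 13991 (E13.5), 17954, 18389 and 15241 (E16.5), 10908, 11155 and 10101 (P0) and 11594, 12297 and 13166 (P3). The order of stages was E16.5, E13.5, P3 and P0, and no 2 stages overlapped, although the gaps were small. The stage means were 14332 ± 724, 17195 ± 1706, 10721 ± 551 and 12352 ± 788 in order of age. The range of its stage means on the log2 scale was 0.68, and only 3.85% of the genes tested had a smaller one. Mdm2 rose at E16.5 by 0.26 on the log2 scale (SE 0.0795, limma adjusted p 0.00693) and fell at P0 by 0.68 on the log2 scale (limma adjusted p 1.46e-06), but with equal library totals the latter value was -0.014 and did not pass (limma adjusted p 0.856). The rise of 0.20 from P0 to P3 (SE 0.0795, limma adjusted p 0.0285) turned with scaling, to -0.08 with TMM factors, -0.24 with median-of-ratios factors and -0.64 with equal library totals. It also lost the call without P0 library 4, without P3 library 3 and without P3 library 4, when limma adjusted p was 0.112, 0.0616 and 0.112. The difference of -0.22 between P3 and E13.5 (limma adjusted p 0.0236) was lost without E13.5 library 1, P3 library 1 or P3 library 3 (limma adjusted p 0.0990, 0.102 and 0.0586). At P0 against E13.5 the value was -0.42 (limma adjusted p 0.000114) and became 0.75 with equal library totals. Under all 4 scalings Mdm2 was called higher at E16.5 than in the E13.5 and the P3 libraries.

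Mdm4 (ENSMUSG00000054387, chromosome 1, 132959484 to 133030561, - strand) declined before birth and recovered in part. In libraries 1, 3 and 4 the normalized counts were 3629, 3432 and 3382 (E13.5), 2307, 2696 and 2329 (E16.5), 1008, 1084 and 995.7 (P0) and 1858, 1897 and 1851 (P3). No 2 stages overlapped, and the order was E13.5, E16.5, P3 and P0. It fell 1.42-fold at E16.5, with log2 fold change -0.51 (SE 0.0774, limma adjusted p 1.22e-05), and 2.37-fold from E16.5 to P0, a log2 fold change of -1.24 (limma adjusted p 6.24e-10). It rose 1.82-fold at P3, a log2 fold change of 0.86 (limma adjusted p 2.97e-08). With equal library totals the first and last of these were -0.01 and 0.02 and did not pass (limma adjusted p 0.937 and 0.813), while the fall at P0 remained at -0.58. The means were 3481 ± 131, 2444 ± 218, 1029 ± 47.5 and 1869 ± 24.9 in order of age. Of the 50-base words of its transcripts 7.31% also occur elsewhere, nearly all in the pseudogene Mdm4-ps, which held at most 8.35 normalized counts.

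**Figure D1:**
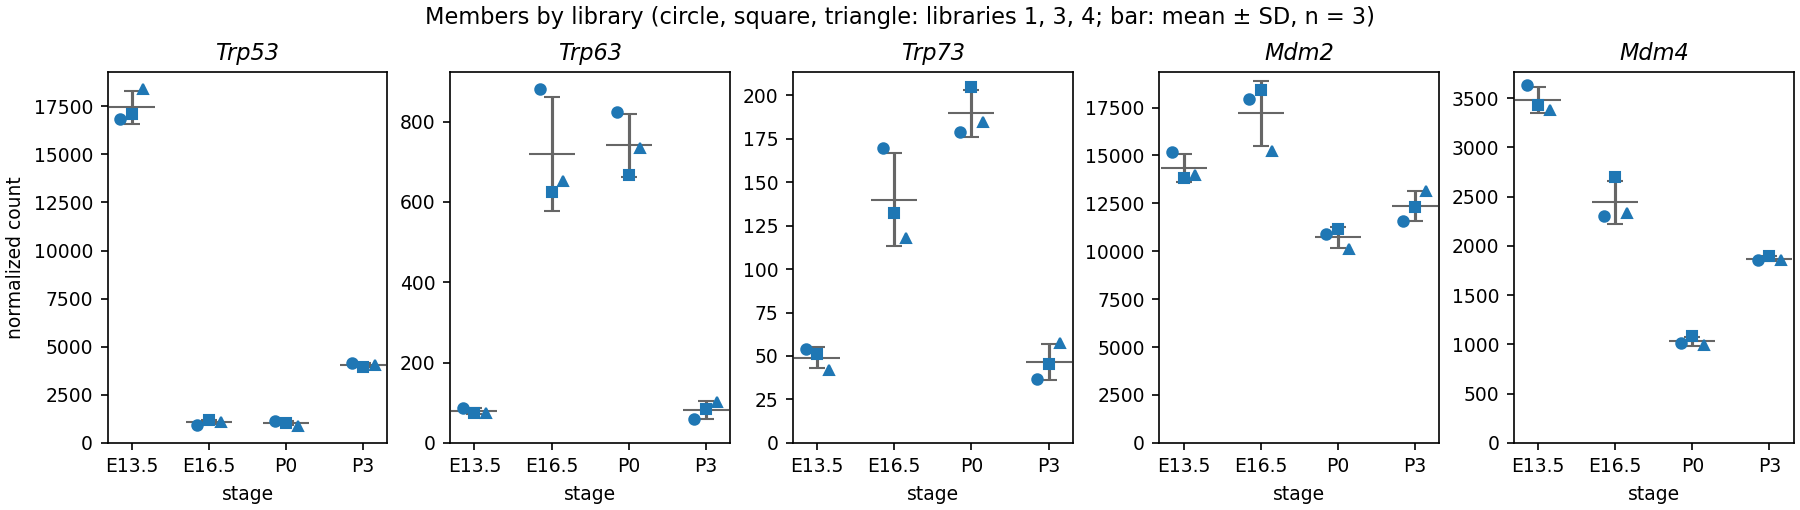
Normalized counts (y axis, linear, from 0, a separate scale for each gene) of the 5 members in each library by stage (x axis). Points are libraries and bars the mean ± SD of 3; Trp53 was high at E13.5 (16812 to 18394) and low at E16.5 and P0 (901.1 to 1179), whereas Trp63 was high at E16.5 and P0 (623.9 to 881.7) and low at E13.5 and P3 (58.1 to 101.2).

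Counts of members are read against how many genes changed. Between E13.5 and E16.5 all 5 members passed the test, 3 higher and 2 lower, where 80.1% of all genes tested passed (45.5% higher and 34.6% lower at E16.5). The libraries of these stages did not overlap for any of the 5, as for 80.2% of all genes. From E16.5 to P0, 2 of 5 passed, both lower, and 3 did not overlap, against 61.0% of all genes passing (27.6% higher, 33.4% lower) and 69.5% without overlap. With equal library totals this count was 3 higher (Trp53, Trp63 and Trp73) and 1 lower (Mdm4), and with TMM or median-of-ratios factors 1 higher and 2 lower. From P0 to P3 all 5 passed without overlap, 3 higher and 2 lower, against 76.5% passing (40.1% higher, 36.4% lower) and 81.0% without overlap. Here the count became 2 higher and 2 lower with TMM factors, 2 and 3 with median-of-ratios factors, and 1 and 3 with equal library totals. For P0 against E13.5 all 5 passed without overlap, 2 higher and 3 lower, against 86.1% (45.7% higher, 40.5% lower) and 88.1%. For P3 against E16.5 all 5 did so, 1 higher and 4 lower, against 69.5% (34.2% higher, 35.2% lower) and 71.6%. For P3 against E13.5, 3 passed, all lower and without overlap, against 70.4% (39.2% higher, 31.2% lower) and 71.3%. In the F-test among stages all 5 passed, as did 95.2% of all genes. With most genes called, passing the test sets no member apart. The median log2 fold change over all genes was 0.31, -0.01 and 0.05 in the 3 consecutive comparisons. Other scalings shifted that median at P3 against P0 by -0.28 (TMM), -0.43 (median of ratios) and -0.82 (equal library totals). With equal library totals 4590 genes were called higher and 12761 lower there, against 8966 and 8156 with the deposited factors, and at P0 against E16.5 the numbers were 12106 and 3448 against 6173 and 7485.

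**Figure D2:**
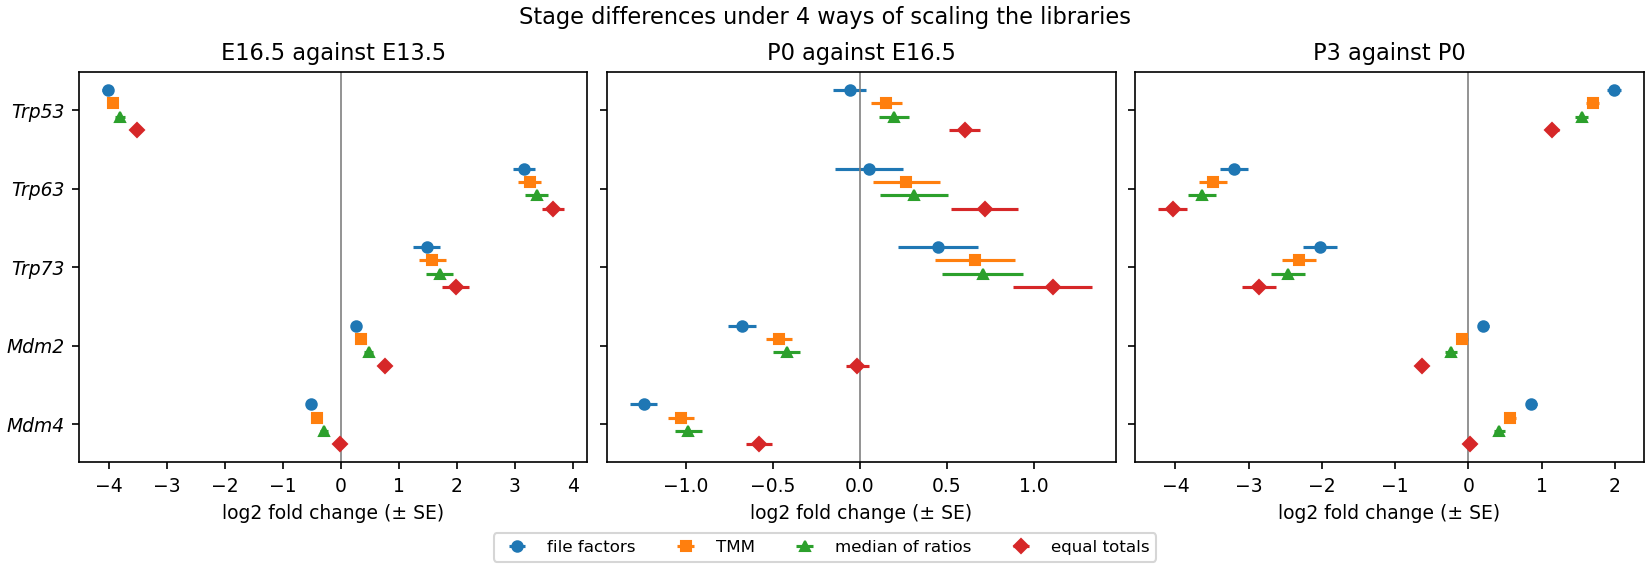
Log2 fold changes with SE (x axis) of the 5 members (y axis) in the 3 consecutive comparisons under 4 scalings of the libraries; each panel has its own x range. The differences of Trp53, Trp63 and Trp73 from E13.5 to E16.5 and from P0 to P3 keep their side of 0 under all 4, whereas Mdm2 at P3 against P0 runs from 0.20 to -0.64.

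Ratios of 2 members within a library do not depend on how libraries are scaled. They were computed from reads per base of annotated exon, so they compare levels per length. In order of age, the ratio of Mdm2 to Trp53 was 0.656 ± 0.0572, 12.9 ± 1.96, 8.34 ± 0.749 and 2.42 ± 0.187. Its 4 stages did not overlap: libraries ran from 0.605 to 0.718, from 11.2 to 15.02, from 7.496 to 8.92 and from 2.22 to 2.58. Trp53 was thus above Mdm2 at E13.5 and below it at every later stage. Mdm4 relative to Trp53 followed the same order of stages, at 0.0547 ± 0.00437, 0.625 ± 0.0381, 0.276 ± 0.0335 and 0.126 ± 0.00467. The 2 regulators also shifted against each other, since Mdm2 over Mdm4 was 11.98 ± 0.218, 20.5 ± 1.89, 30.3 ± 1.03 and 19.2 ± 1.31 over the same stages. Here E16.5 and P3 overlapped and the other stages did not.

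Within the family, Trp63 over Trp53 was 0.00218 ± 0.000291, 0.331 ± 0.102, 0.349 ± 0.0409 and 0.00973 ± 0.00271 in order of age. Trp63 stayed below Trp53 per length in each of the 12 libraries, at most 0.447 of it. Trp63 and Trp73 were near each other at E13.5 and P3, with ratios of 1.07 ± 0.108 and 1.15 ± 0.103, and Trp63 was above Trp73 at E16.5 and P0, with 3.397 ± 0.269 and 2.60 ± 0.442. By normalized count per kilobase of exon, the order at E13.5 was Trp53 (4311 ± 208), Mdm2 (2820 ± 142), Mdm4 (235.2 ± 8.83), Trp63 (9.39 ± 0.915) and Trp73 (8.86 ± 1.11). At P0 it was Mdm2 (2109 ± 108), Trp53 (254.7 ± 31.8), Trp63 (88.3 ± 9.33), Mdm4 (69.5 ± 3.21) and Trp73 (34.3 ± 2.44). Neighbours in these orders did not overlap except Trp63 and Trp73 at E13.5. The annotated exons of Mdm4 sum to 14798 bases over 14 transcripts, against 4045 for Trp53 and 5083 for Mdm2, so its level per length is lower than it would be over a single transcript.

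**Figure D3:**
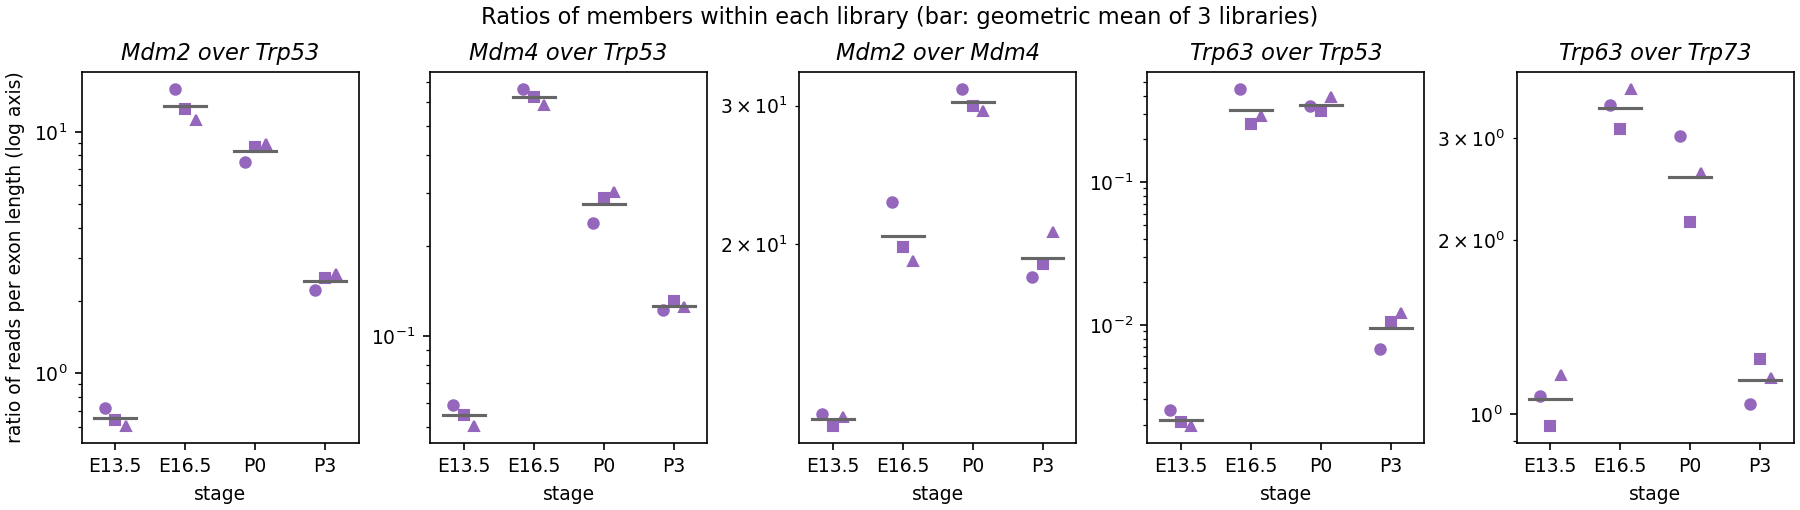
Ratios of reads per exon length of 2 members in each library (y axis, log scale) by stage (x axis); bars are geometric means of 3 libraries. Mdm2 over Trp53 is below 1 at E13.5 (0.605 to 0.718) and above 2 at all later stages, and Trp63 over Trp53 is high at E16.5 and P0.

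Across the 12 libraries, Trp63 and Trp73 had a Pearson r of 0.98 on log2(normalized count + 1), and Trp53 had r of -0.89 with Trp63 and -0.85 with Trp73. Mdm2 had r of 0.09 with Trp53 and 0.75 with Mdm4, and Mdm4 had 0.70 with Trp53. These 12 points fall into 4 stages and share the size factors, so the values are descriptions. The 3 protein-coding genes most like Trp53, by the highest r over 12 libraries, were Hnrnph3 (0.999), Mthfd1 (0.997) and Sephs1 (0.997), with means falling from 7497, 16724 and 6046 normalized counts at E13.5 to 1396, 1375 and 1294 at E16.5. For Trp63 they were Lysmd3 (0.994), Hbs1l (0.992) and Tnfaip2 (0.991), and Tnfaip2 went from 21.7 ± 6.89 at E13.5 to 372.8 ± 73.4 at E16.5 and from 354.4 ± 11.7 at P0 to 24.0 ± 1.37 at P3. Nearest to Trp73 were Ccdc158 (0.991), Tbxa2r (0.990) and P4ha2 (0.985). The nearest to Mdm2 were Med26 (0.987), Ythdf1 (0.984) and Spice1 (0.979), and to Mdm4 Arid3b (0.996), Ccdc117 (0.995) and Ubox5 (0.995).

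Genes that p53 is known to activate were listed in 3 groups. Of 16 genes of arrest and survival, 11 fell and 3 rose from E13.5 to E16.5, with a median log2 fold change of -0.74 against 0.31 for all genes. From P0 to P3, 11 rose and 5 fell, with a median of 0.93 against 0.05. Of all genes, 45.5% rose and 34.6% fell at E16.5, and 40.1% rose and 36.4% fell from P0 to P3. With only the 13135 genes of mean 100 or more tested, 4859 rose and 6600 fell at E16.5 (median -0.27). From P0 to P3, 7843 of these rose and 3406 fell (median 0.58). The counts and medians of every list below are to be read against both sets of genes. Cdkn1a, which encodes the cell cycle inhibitor p21, had, in order of age, 1817 to 2149, 275.8 to 372.8, 191.6 to 220.6 and 1336 to 1589 normalized counts. It was high at E13.5 and P3, and no 2 stages overlapped. Cdkn1a fell by 2.66 on the log2 scale at E16.5 (limma adjusted p 3.67e-12) and rose by 2.83 at P3 (limma adjusted p 2.94e-12). Gtse1, a regulator of p53 in the G2 phase, and Trp53inp1, a stress-induced cofactor, fell by 2.15 and fell by 2.098 at E16.5 and rose by 2.06 and 1.53 at P3. Ddit4, a stress-induced inhibitor of mTOR, fell at E16.5 and had its lowest mean, 66.9 ± 15.04, at P3. Ccng1, which encodes cyclin G1 and is a classical target, differed less between stages: its means were 3584 ± 188, 2846 ± 240, 5187 ± 141 and 4196 ± 183, highest at P0, and its fall at E16.5 became a rise with equal library totals (log2 fold change -0.33 and 0.17).

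Of 12 target genes of apoptosis, 7 fell and 3 rose at E16.5 (median -0.77), and 7 rose and 3 fell at P3 against P0 (median 0.48). The last median lies below the 0.58 of genes with a mean of 100 or more. Bax and Pmaip1, which encode pro-apoptotic BCL2 family proteins (Pmaip1 encodes NOXA), had their highest means at E13.5, as Trp53 did. Bax had means of 12640 ± 495, 2133 ± 116, 1747 ± 121 and 5793 ± 456 in order of age. Pmaip1 went from 18692 ± 1182 to 2912 ± 342, 2909 ± 169 and 10996 ± 264. Fas, the gene of a death receptor, and Perp, a gene of cell junctions and apoptosis that p53 and p63 both activate, had their higher means at E16.5 and P0, as Trp63 did. Fas ran from 6.31 to 26.4, 182.3 to 222.4, 222.3 to 274.1 and 5.81 to 18.2 normalized counts in order of age. Perp had means of 298.1 ± 17.8, 675.7 ± 161, 3474 ± 160 and 310.0 ± 27.7, and rose by 2.38 on the log2 scale from E16.5 to P0 (limma adjusted p 2.03e-10), an interval in which Trp63 did not pass the test. The summed Sertoli cell marker counts were also highest at those stages, and their part in the Fas and Perp values was not tested.

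Of 8 target genes of DNA repair and nucleotide supply, 4 fell and 1 rose at E16.5 (median -0.41), and 7 rose and 1 fell at P3 (median 1.16). Pcna, the replication clamp, fell from 23859 ± 144 to 3988 ± 36.6 at E16.5 and was at 22436 ± 1773 at P3. Fancc, of the Fanconi anemia pathway, was lowest at P0 (577.6 ± 59.6). Ddb2, which recognizes ultraviolet damage, had its highest mean at P3, 1394 ± 30.6, against 266.0 ± 22.4 at E13.5.

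Upstream of p53, 8 of 11 genes of damage kinases and sensors fell and 2 rose at E16.5 (median -1.08), and 9 of 11 rose and 0 fell at P3 against P0 (median 1.21); a further gene of the list, H2afx, was listed at 0 in all libraries. Chek1 and Chek2, which encode the checkpoint kinases, fell by 2.34 and fell by 1.498 on the log2 scale at E16.5 and rose by 1.59 and 2.65 at P3. Mdc1, a scaffold at DNA breaks, went from 718.7 ± 19.0 to 103.1 ± 29.6 at E16.5, and Rad50, of the break-sensing MRN complex, from 12289 ± 360 to 5508 ± 274.

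Among 16 genes that act on MDM2, MDM4 or p53 stability, 11 fell and 4 rose at E16.5 (median -1.21), 10 fell and 2 rose from E16.5 to P0 (median -0.42, and 0.24 with equal library totals), and 13 rose and 0 fell at P3 (median 0.79). From E16.5 to P0, 6611 genes with a mean of 100 or more fell and 3206 rose (median -0.29). The median of all genes there was -0.01, and 0.64 with equal library totals. The count at P3 was 9 and 3 with TMM factors, 8 and 3 with median-of-ratios factors, and 7 and 7 with equal library totals. Usp7, which encodes a deubiquitinase of p53 and MDM2, went from 12353 ± 565 at E13.5 to 3604 ± 382, 2884 ± 132 and 7495 ± 508. Usp10, another p53 deubiquitinase, fell by 1.77 on the log2 scale at E16.5 and had 2040 ± 194 at P3. Rpl5, Rpl11 and Rpl23 encode ribosomal proteins that bind MDM2, and all had their highest means at E13.5 and their lowest at P0, although Rpl11 did not pass the test between E16.5 and P0 (log2 fold change -0.17, and 0.50 with equal library totals). From E13.5 to P0, Rpl11 went from 8758 ± 233 to 1267 ± 72.5, Rpl5 from 61258 ± 726 to 10441 ± 464 and Rpl23 from 10015 ± 69.5 to 2085 ± 97.3. Ribosomal protein genes have many processed pseudogenes, and how reads matching several genes were handled is not stated, so their counts are uncertain. Cdkn2a, which encodes the MDM2 inhibitor ARF and the unrelated cell cycle inhibitor p16 from 1 locus, was low, with 40.3 to 64.1 normalized counts at E13.5 and 112.9 to 147.8 at P3. Its log2 fold change at P3 against E13.5 was 1.35 (limma adjusted p 0.00024).

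Of 16 p53 cofactors and modifiers, 12 fell and 4 rose at E16.5 (median -0.82), and 8 rose and 3 fell at P3 (median 0.37). The last median lies below the 0.58 of genes with a mean of 100 or more. At P3 the count was 6 and 4 with TMM factors, 5 and 6 with median-of-ratios factors, and 4 and 10 with equal library totals. Setd7 and Hdac1, which encode a methyltransferase and a deacetylase that modify p53, fell at E16.5 from 1788 ± 105 to 334.5 ± 56.5 and from 22812 ± 854 to 4224 ± 175. Of the 3 ASPP genes on the list, 2 went the other way. Trp53bp2, which encodes ASPP2, had 1707 ± 106 at E13.5 and 1046 ± 164.98 at E16.5. Ppp1r13b, which encodes the p53 activator ASPP1, rose from 1259 ± 164 to 8404 ± 565 (log2 fold change 2.74, limma adjusted p 6.97e-14). Ppp1r13l, which encodes the inhibitor iASPP, rose from 72.8 ± 12.8 to 185.3 ± 23.3, reached 267.0 ± 23.7 at P0 and fell to 58.6 ± 9.05 at P3, with its higher means at E16.5 and P0, as for Trp63 and Trp73.

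For p63 and p73, 7 of 9 genes of their regulators fell and 1 rose at E16.5 (median -0.55), and 7 rose and 0 fell at P3 (median 0.62). The count at P3 was 5 and 2 with TMM factors, 4 and 3 with median-of-ratios factors, and 3 and 5 with equal library totals. Nedd4l, a ubiquitin ligase gene, was the riser, from 765.6 ± 65.1 to 3632 ± 245, while Stub1, another ubiquitin ligase gene, fell by 2.29 on the log2 scale. Abl1, of a kinase that acts on p73, went from 2681 ± 82.5 at E13.5 to 929.5 ± 83.8 at P0. Its rise at P3 (log2 fold change 0.27) became -0.02 with TMM factors, and the rise of Usp10 there (0.42) became -0.42 with equal library totals. Of 15 genes tied to p63 in epithelia or to p73 in ciliated cells, 8 rose and 6 fell at E16.5 (median 0.38, against 0.31 for all genes). Of all genes, 45.5% rose and 34.6% fell there, so this list is near the balance of all genes. At P3, 4 of the 15 rose and 8 fell (median -0.68), where 40.1% of all genes rose and 36.4% fell.

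Epithelial markers moved with Trp63 in part. Krt14, a keratin of basal epithelial cells, had, in order of age, 0 to 2.18, 83.7 to 132.6, 46.7 to 69.5 and 0 to 2.02 normalized counts, and Krt5 had means of 2.12, 77.8, 34.5 and 1.97. Dsp, a desmosome gene, was highest at P0 (517.1 ± 32.8). Of the 6 epithelial markers, Dsg3 was at 0 at E13.5 and at P3, and their summed count was 36114 to 38248, 6331 to 6918, 3536 to 3848 and 12829 to 14547 in that order, most of it Epcam, which germ cells also express. The part of epithelial cells in the Trp63 values was not tested. The summed count of the Sertoli cell markers was 12470 to 19041 at E16.5 and 21503 to 42178 at P0. The summed count of 4 blood cell markers was, in order of age, 66.3 to 381.9, 1735 to 2345, 1522 to 2388 and 286.8 to 512.2. The summed count of 6 Leydig cell markers was 573.5 to 729.4, 623.1 to 7763, 1133 to 6201 and 179.2 to 267.5 in order of age. For 5 peritubular cell markers it was 171.0 to 224.2, 1253 to 1867, 3699 to 4160 and 796.6 to 915.7. For 6 macrophage markers it was 38.1 to 75.7, 1047 to 1237, 320.0 to 505.4 and 590.2 to 612.4. For 5 endothelial cell markers it was 4446 to 5201, 733.7 to 944.7, 1195 to 1430 and 586.3 to 745.0. At E13.5 most of the endothelial sum was Pecam1, with a mean of 4618. The part of these cells in the Trp63 and Trp73 values was not tested. Fgfr2, a receptor gene that p63 activates in epithelia, fell from 3452 ± 265 at E13.5 to 400.3 ± 82.0 at E16.5. Dlx3, a homeobox gene of the epidermis, followed another pattern, with means of 9.95 ± 1.34, 369.4 ± 27.3, 192.5 ± 26.2 and 2967 ± 155.

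The list counts and medians above depend on scaling. Over 8 lists, 6 comparisons and 3 other scalings, the median relative to that of all genes kept its sign in 144 of 144 cases. This is no test of the lists: another scaling shifts the log2 fold changes of all genes by nearly the same amount. The relative median could therefore hardly change. The median itself changed sign in 24, of which 20 were with equal library totals. At P3 against P0 with equal totals it turned negative for the apoptosis targets (-0.35), the MDM and stability regulators (-0.05), the cofactors (-0.47, and -0.07 with median-of-ratios factors) and the p63 and p73 regulators (-0.22), and from E13.5 to E16.5 it became 0.09 for the repair targets. Counts of rises and falls at P3 with equal totals were 6 and 6 for the arrest targets, 4 and 6 for the apoptosis targets, 5 and 1 for the repair targets, and 6 and 4 for the damage kinases and sensors. At E16.5 they were 5 and 7, 6 and 6, 3 and 3, and 3 and 7 for the same lists, and 2 and 2 for the p63 and p73 regulators. Of all 22384 genes tested, 12401 rose and 5540 fell at E16.5 with equal totals (median 0.77). At P3 against P0, 4590 rose and 12761 fell with them (median -0.77).

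**Figure D4:**
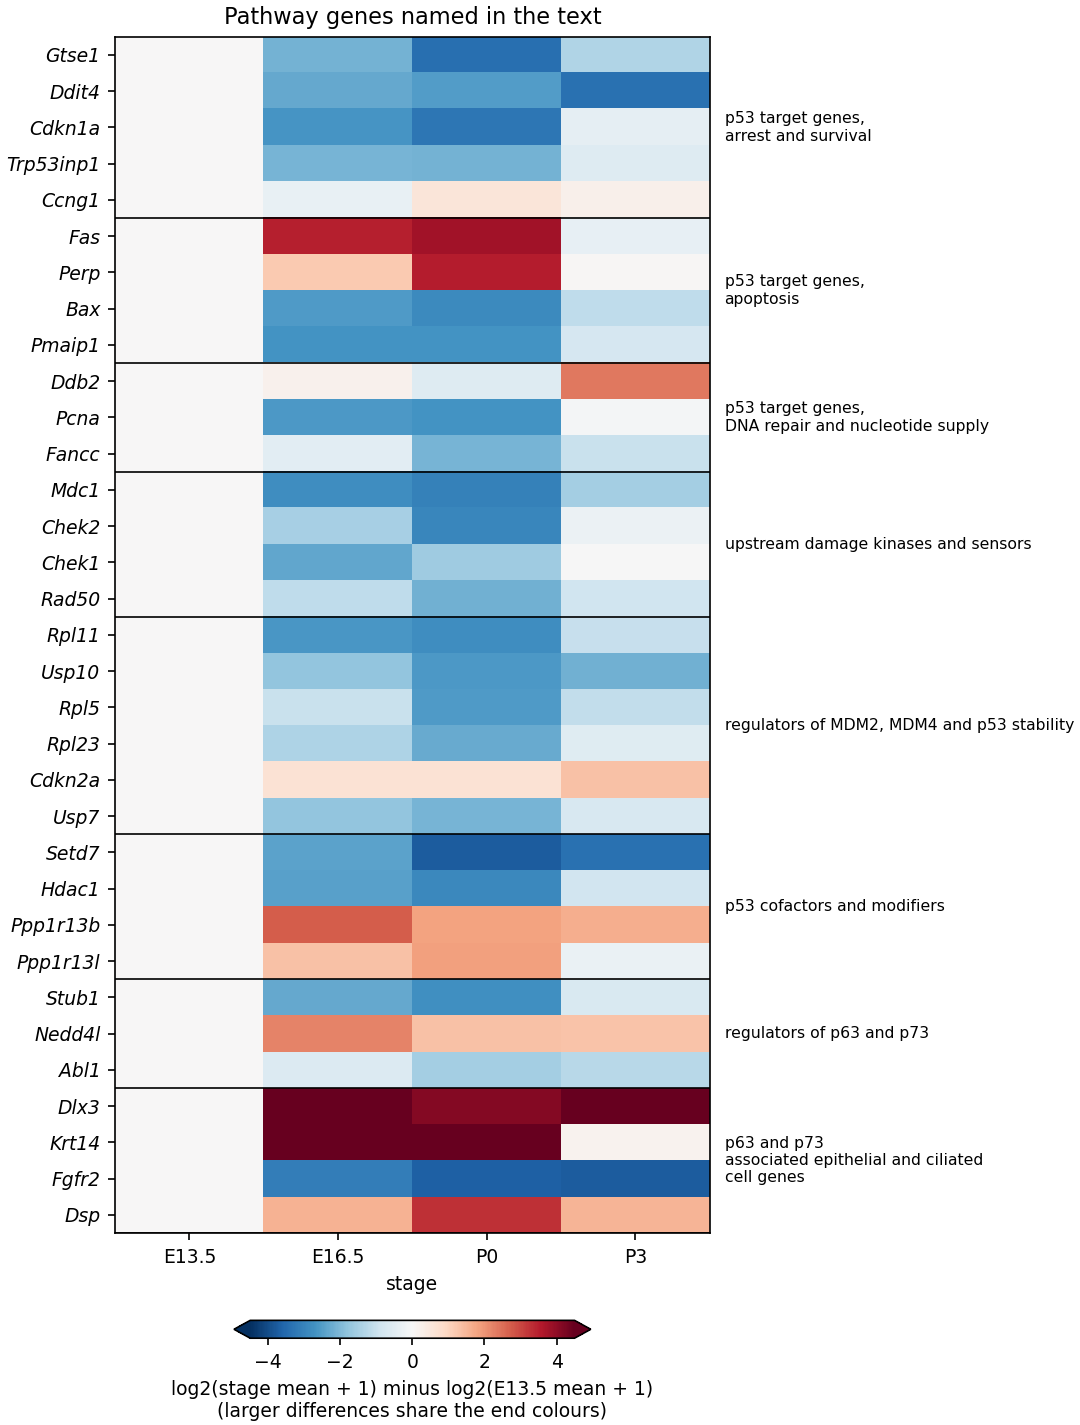
Difference of log2(stage mean + 1) from E13.5 (colour, red higher and blue lower) for the pathway genes named here (rows, grouped by list) at each stage (columns); differences beyond 4.5 share the end colours. Most rows of the target, damage and regulator lists are blue at E16.5 and P0 and paler at P3, while Fas, Perp, Ppp1r13l and Krt14 are red at E16.5 and P0.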

How the data were processed

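Transcripts were measured in 12 RNA-seq libraries, 3 at each of 4 stages. The authors deposited 1 table of RLE-scaled featureCounts values, a signal in which each library's reads were divided by its own size factor. Per the submitters' processing notes, bcl2fastq 2.20, cutadapt 1.18, HISAT2 2.1.0, featureCounts 1.5.2 and DESeq2 1.26.0 were used with mm10 and GRCm38; annotation release, strand setting and multi-mapped reads are not given in the sources used here. In every library 100% of the deposited values times the size factor were whole within 0.001, which gave back the reads. Columns carry a stage and the numbers 1, 3 and 4, not the replicate numbers of the titles, so each was assigned to its stage only.

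Symbols came from GENCODE M21 and matched 99.4% of identifiers. The main test was limma 3.58.1 (R 4.3.3) on log2(normalized count + 1) for the genes that reached 10 normalized counts in 3 or more libraries, with 1 spread for all 4 stages (8 residual degrees of freedom) and Benjamini-Hochberg adjustment over 22384 genes at 0.05. Fold values are ratios of stage means. Added count tests on recovered reads, edgeR 4.0.16 and DESeq2 1.42.0, called 17851 and 17806 genes at E16.5 against E13.5, where limma called 17932. The scripts were tested on simulated data. Named pathway genes are, for each of 8 lists, the 4 with the largest range of stage means among genes past the F-test with a stage mean of at least 100, plus Cdkn1a, Ccng1, Cdkn2a and Usp7; Trp53bp2, Krt5, Dsg3 and Epcam were named after their values were seen, and 2 genes that the rule named are not reported here. Pattern neighbours were sought among protein-coding genes with a mean of at least 100. The members and lists were chosen with earlier results of these data known. Python 3.11.15 was used for the remaining steps.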

Additional observations from a re-analysis of the deposited data

How the results depend on the processing

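The numbers 1, 3 and 4 of the columns are not those of the titles, so the libraries share only a number. A replicate block on the column number, added after seeing the data (limma, 6 residual degrees of freedom), changed no call of a member, with Mdm2 at P3 against P0 still at 0.20 (limma adjusted p 0.0284), and moved the genes called at P0 against E16.5 from 13658 to 13529. Deviations from stage means of the 18 same-numbered pairs had r from -0.036 to 0.042, and 2 of 12 libraries were on average closest to their own number. Over 35 member results and 800 values under alternatives, 764 kept direction and side of the threshold. Of these 800, 420 came from leaving out 1 library. Leaving out a library of a stage outside the comparison changes only the shared spread, not the log2 fold change. F-tests have no direction to lose. All calls of Trp53, Trp63 and Trp73 in the other 4 comparisons than P0 against E16.5 and P3 against E13.5 kept direction and call under every alternative run. All 5 F-tests kept their call. The alternatives were TMM, median-of-ratios and equal-total scaling, a pseudocount of 0.1 or 10, testing without a filter or only above a mean of 100, the 2 stages alone, edgeR, DESeq2, the block and leaving out each library.

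With equal library totals, log2 fold changes were -0.0070 (E16.5 against E13.5) and 0.021 (P3 against P0) for Mdm4. At P0 against E16.5 they were 0.60 for Trp53, 0.72 for Trp63, 1.11 for Trp73 and -0.014 for Mdm2; for Mdm2 they were -0.64 at P3 against P0, 0.75 at P0 against E13.5 and 0.11 at P3 against E13.5; for Trp73 at P3 against E13.5 the value was 0.23. With median-of-ratios factors they were 0.20 for Trp53 and 0.71 for Trp73 at P0 against E16.5, and for Mdm2 -0.24 at P3 against P0, 0.061 at P0 against E13.5 and -0.18 at P3 against E13.5. TMM factors gave 0.15 for Trp53 and 0.66 for Trp73 at P0 against E16.5, and for Mdm2 -0.084 at P3 against P0 and -0.11 at P0 against E13.5. Fitting the 2 stages alone put Trp73 at P0 against E16.5, still 0.45, past the threshold (limma adjusted p 0.0375).

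Leaving out 1 library each, the ranges were -0.15 to 0.034 for Trp53 and -0.039 to 0.21 for Trp63 at P0 against E16.5, 0.16 to 0.25 for Mdm2 at P3 against P0, and, at P3 against E13.5, -0.15 to 0.24 for Trp63, -0.25 to 0.065 for Trp73 and -0.26 to -0.17 for Mdm2. The causes were not tested. Depth limits Trp73 most, with 38 to 57 reads per library at P3.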
